A study of Mus musculus with 2 samples.

Results

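Gbp7, Ifit1, Ifit3, Isg15, Xaf1, Irf7, Irf9, Stat2 and Ifitm3 are 9 genes of the interferon response, and their levels were measured in retinal cells of diabetic and wild-type mice. They were found by gene symbol, and all 9 were among the 32285 genes of the count matrices. The diabetic mice were C57BLKS animals homozygous for the db allele of the leptin receptor gene Lepr (db/db), an obese and diabetic model. The comparison mice were C57BLKS animals with the wild-type Lepr allele (wild type). Both groups were 13 weeks old, were recorded as receiving no treatment, and gave the retinas of both eyes to droplet-based single-cell RNA sequencing of transcript 3' ends. Each genotype had 1 library made from 2 mice, and the cells of these mice cannot be told apart. With no second library to check a difference against, no test between genotypes was possible, and all intervals below are 95% intervals that cover counting error only. The db mutation is present in every cell of the animal, so a direct effect of the receptor and the effect of the diabetic state cannot be told apart.

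Type I interferons bind a cell-surface receptor whose kinases phosphorylate STAT proteins. STAT2 acts with IRF9 in the complex ISGF3, which binds a DNA element called the interferon-stimulated response element and switches on a large set of antiviral genes. Of the 9 genes, Stat2 and Irf9 encode subunits of ISGF3, and Irf7 encodes a factor that drives further interferon transcription. Ifit1 and Ifit3 encode proteins that restrict foreign RNA, Isg15 a ubiquitin-like modifier, Gbp7 a guanylate-binding GTPase, Ifitm3 a membrane protein that blocks viral entry, and Xaf1 a pro-apoptotic protein. In the retina, Muller glia are the radial support cells that span all layers, and microglia are the resident immune cells.

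The db/db library held 33742189 unique molecular identifiers (UMIs, counted transcripts) over 11083 barcodes, and the wild-type library 35642274 UMIs over 10308 barcodes. Filters kept 10963 and 10230 cells, with medians of 2051 and 2314 UMIs, and 26 barcodes occurred in both libraries. Cells were assigned to classes by marker genes, which left 11.7% of db/db and 15.7% of wild-type cells without a class. The Muller glia class had 183 db/db and 291 wild-type cells, with medians of 2755 and 2779 UMIs, and all 12 of its markers were detected in both libraries. The microglia class had 56 and 55 cells and all 14 markers, but its median depth was 4342.5 UMIs in the db/db and 2128 UMIs in the wild-type library. Rods made up 8660 and 7288 cells, with medians of 1865 and 1985 UMIs. RNA of the rods was present in other classes. The 12 rod markers stood at 21451 CPM in db/db Muller glia and 18819 CPM in wild-type Muller glia, where CPM are counts per 1000000 UMIs of the class.

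All 9 are protein-coding genes, and their positions are given in GRCm38. Ifit3 (ENSMUSG00000074896) spans 34583531 to 34588731 and Ifit1 (ENSMUSG00000034459) 34640871 to 34650009 on the plus strand of chromosome 19. Isg15 (ENSMUSG00000035692) spans 156199424 to 156200818 on the minus strand of chromosome 4, and Gbp7 (ENSMUSG00000040253) 142530342 to 142550149 on the plus strand of chromosome 3, where a processed pseudogene lies within it. Xaf1 (ENSMUSG00000040483) spans 72301629 to 72313733 on the plus strand of chromosome 11. Ifitm3 (ENSMUSG00000025492) spans 141009586 to 141010770 and Irf7 (ENSMUSG00000025498) 141262706 to 141266481 on the minus strand of chromosome 7. Irf9 (ENSMUSG00000002325) spans 55603571 to 55610030 on chromosome 14 and Stat2 (ENSMUSG00000040033) 128270559 to 128292849 on chromosome 10, both on the plus strand.

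All 9 genes had a match among the RefSeq promoter windows of GRCm38.p6, which run from 250 bases before to 50 bases after a transcription start. The letters GAAANNGAAA, a core form of the interferon-stimulated response element, were searched on both strands, where the other strand reads TTTCNNTTTC. They were present in windows of 6 of the 9 genes, namely Gbp7, Ifit1, Ifit3, Isg15, Stat2 and Ifitm3, against 3.99% of all 27025 genes with a window. No match was found in the windows of Xaf1, Irf7 and Irf9. The 160 bases before the start are shown for the 4 genes whose db/db to wild-type ratio in Muller glia was lowest (matches to GAAANNGAAA or TTTCNNTTTC in capitals). A match describes the letters and is not a measured binding site.
Gbp7, chr3:142530176-142530335, plus strand: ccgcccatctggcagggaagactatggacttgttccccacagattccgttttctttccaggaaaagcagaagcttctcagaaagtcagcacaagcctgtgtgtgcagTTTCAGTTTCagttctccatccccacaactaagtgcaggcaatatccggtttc
Ifit1, chr19:34640729-34640888, plus strand: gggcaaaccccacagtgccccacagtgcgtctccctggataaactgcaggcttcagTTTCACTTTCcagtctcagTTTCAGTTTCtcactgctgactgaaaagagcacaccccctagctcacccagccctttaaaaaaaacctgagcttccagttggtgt
Ifit3, chr19:34583369-34583528, plus strand: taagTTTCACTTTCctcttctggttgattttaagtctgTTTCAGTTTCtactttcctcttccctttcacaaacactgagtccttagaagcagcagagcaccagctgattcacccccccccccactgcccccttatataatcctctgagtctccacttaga
Isg15, chr4:156200819-156200978, minus strand: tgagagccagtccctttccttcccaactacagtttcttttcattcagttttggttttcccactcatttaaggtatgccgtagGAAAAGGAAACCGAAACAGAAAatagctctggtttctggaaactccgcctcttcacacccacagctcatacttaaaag
Ifit1 and Ifit3, which both lie on chromosome 19, carried the letters TTTCACTTTC followed downstream by TTTCAGTTTC. In Ifit1 these began 104 and 85 bases before the start, and in Ifit3 156 and 122 bases before it. The Isg15 stretch holds 3 overlapping matches between 78 and 57 bases before the start.

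In Muller glia, the antiviral effector genes were lower in the db/db library. Ifit3 had 20 UMIs (26.9 CPM) in db/db Muller glia, against 124 UMIs (104 CPM) in wild-type Muller glia, a log2 ratio of -1.95 with an interval of -2.71 to -1.26. Isg15 had 9 UMIs (12.1 CPM) in db/db and 67 UMIs (56.2 CPM) in wild-type Muller glia, a log2 ratio of -2.22 (-3.41 to -1.21). Gbp7 had 2 UMIs (2.69 CPM) in db/db and 44 UMIs (36.9 CPM) in wild-type Muller glia. Its log2 ratio was -3.78, the lowest of the 9 genes, although 2 UMIs leave a wide interval of -6.87 to -1.84. Ifit1 had 0 UMIs in db/db Muller glia, with an interval up to 4.96 CPM, and 36 UMIs (30.2 CPM) in wild-type Muller glia. With the db/db count set to a floor of 3 UMIs, Ifit1 was 7.50-fold lower in the db/db library. The upper limit of its log2 ratio, taken from the count of 0, was -2.53. All but 8 of the 36 Ifit1 UMIs came from a single wild-type cell. Without the top cell of each library, the same floor gave a value 1.64-fold lower in db/db. Xaf1 had 10 UMIs (13.4 CPM) in db/db and 57 UMIs (47.8 CPM) in wild-type Muller glia, a log2 ratio of -1.83 (-2.97 to -0.85). Ifitm3 had 30 UMIs (40.3 CPM) in db/db and 98 UMIs (82.2 CPM) in wild-type Muller glia, a log2 ratio of -1.03 (-1.67 to -0.43).

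The 3 transcription factors of the group also had lower levels in db/db Muller glia, with Irf7 within counting error. Irf9 had 19 UMIs (25.5 CPM) in db/db and 66 UMIs (55.4 CPM) in wild-type Muller glia, a log2 ratio of -1.12 (-1.94 to -0.36). Stat2, its partner in ISGF3, had 14 UMIs (18.8 CPM) in db/db and 43 UMIs (36.1 CPM) in wild-type Muller glia, a log2 ratio of -0.94 (-1.93 to -0.04). Irf7 had 18 UMIs (24.2 CPM) in db/db and 38 UMIs (31.9 CPM) in wild-type Muller glia, and its interval of -1.30 to 0.45 around -0.40 includes no difference. Rods carried these 3 genes too, and rod RNA was present in Muller glia. Rod markers stood at 64324 CPM in db/db and 66880 CPM in wild-type rods, against 21451 and 18819 CPM in Muller glia. The part of rod RNA in the Muller glia levels of these 3 genes was not tested. Irf7 and Irf9 counts carry a further uncertainty. The 3' end of Irf7 overlaps the last 45 bases of Phrf1 on the other strand, the start of Irf9 overlaps Rnf31 on the same strand over 123 bases, and the use of strand in counting was not given in the sources used here. Reads of Ifit3 can also be shared with its near-identical copy Ifit3b, which had 14 UMIs in db/db and 34 in wild-type Muller glia.

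Summed over the 9 genes, db/db Muller glia held 122 UMIs, or 164 CPM (136 to 196), and wild-type Muller glia 573 UMIs, or 481 CPM (442 to 522). The log2 ratio of the sums was -1.55 (-1.85 to -1.27). All 9 genes had 20 or more UMIs in Muller glia over both libraries, and 7 of them were at least 2-fold lower in db/db, against 2.36% of the 9769 genes with that many UMIs. Among genes with 50 or more UMIs, called measured here, 5 of 7 members were at least 2-fold lower, against 1.01% of 6564 genes. In both counts, the genes at least 2-fold lower reached the minimum with their wild-type UMIs alone. Of the 7 such genes in the first count, 5 had fewer than 20 UMIs in db/db. Both counts therefore describe the libraries and carry no support of their own. The median log2 ratio of the 7 measured members was -1.12, beside 0.03 over all measured genes in Muller glia. Over all 9 genes it was -1.83, beside 0.03 over all genes with 20 or more UMIs. Without the cell with the most UMIs of these genes in each library, the log2 ratio of the sums was -1.22 (-1.53 to -0.92). It was -1.50 (-2.28 to -0.79) after thinning every cell to 1000 UMIs, and -1.98 (-2.36 to -1.61) without Muller glia whose rod markers held over 2% of UMIs, a comparison added after the data had been seen.

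**Figure D1:**
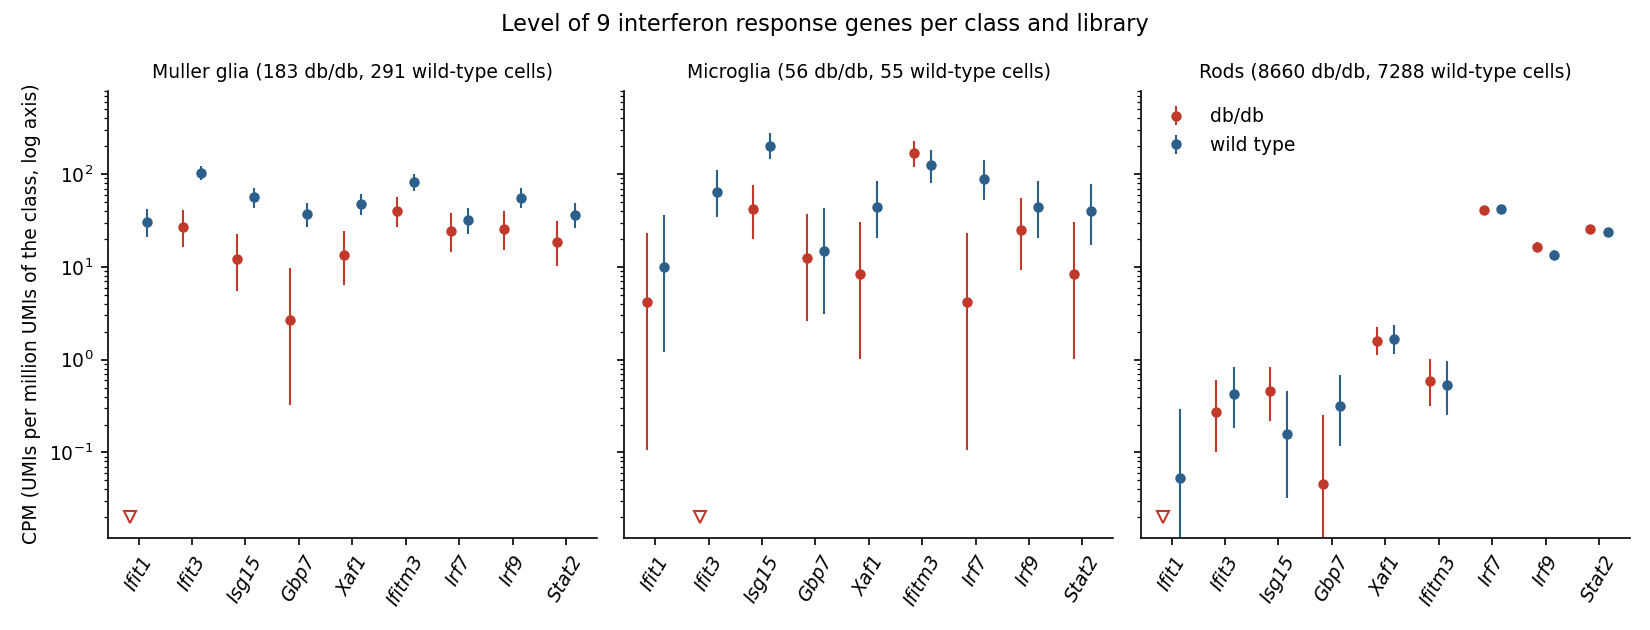
Level of the 9 genes in Muller glia, microglia and rods, in CPM on a log axis, with db/db in red on the left and wild type in blue on the right of each pair. Points are single libraries, bars are exact 95% Poisson intervals for counting error, and open triangles at the bottom mark 0 UMIs. In Muller glia all 9 db/db points lie below their wild-type points, and in rods the points of Irf7, Irf9 and Stat2 lie near each other in both libraries.

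Each of the 9 genes was found in a smaller share of db/db than of wild-type Muller glia before depth was equalised. Ifit3 was found in 18 of 183 db/db cells (9.84%, Clopper-Pearson interval 5.93% to 15.1%), against 44 of 291 wild-type cells (15.1%, 11.2% to 19.8%). Xaf1 was found in 10 db/db and 35 wild-type cells, Irf9 in 15 and 40, Stat2 in 12 and 32, and Gbp7 in 2 and 20. Isg15 was found in 5 db/db and 16 wild-type cells, and Ifit1 in 0 and 4. Irf7 in 17 and 30 cells and Ifitm3 in 16 and 27 cells had almost the same share in both libraries, 9.29% and 10.3% for Irf7 and 8.74% and 9.28% for Ifitm3. Any of the 9 genes was found in 66 db/db cells (36.1%, 29.1% to 43.5%) and in 132 wild-type cells (45.4%, 39.5% to 51.3%). Thinning every cell to 1000 UMIs left 137 db/db and 208 wild-type cells. The shares with any of the genes were then 11.7% (6.82% to 18.3%) in db/db and 22.6% (17.1% to 28.9%) in wild type. The thinned share was 3.65% in db/db and 3.37% in wild type for Ifit3, and 2.92% and 2.88% for Irf9. For the other 7 genes it was 0% to 2.92% in db/db and 0.962% to 4.81% in wild type, lower in db/db for each. In rods, which served as the background for free RNA, Ifit3 was found in 6 of 8660 db/db cells (0.0693%) and in 8 of 7288 wild-type cells (0.110%). The share of Muller glia with Irf7 was close to that of rods, where it was 9.20% in db/db and 9.43% in wild type.

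The UMIs of these genes were spread unevenly over the wild-type Muller glia. A single wild-type cell held 141 of the 573 UMIs and carried all 9 genes, with 41 UMIs of Ifit3, 28 of Ifit1, 24 of Isg15 and 16 of Gbp7. This cell had 6871 UMIs in all, all 12 Muller glia markers and none of the microglia markers. The next wild-type cells held 41 UMIs, of which 27 were Ifit3, and 37 UMIs, of which 35 were Ifitm3. In db/db Muller glia the highest cell held 8 UMIs and no cell carried more than 3 of the genes. The 5 highest cells held 26.2% of the UMIs in db/db and 43.8% in wild-type Muller glia. Without them, in a comparison added after the data had been seen, the log2 ratio of the sums was -1.11 (-1.47 to -0.77), and that of Ifit3 was -0.83 (-1.69 to -0.04).

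**Figure D2:**
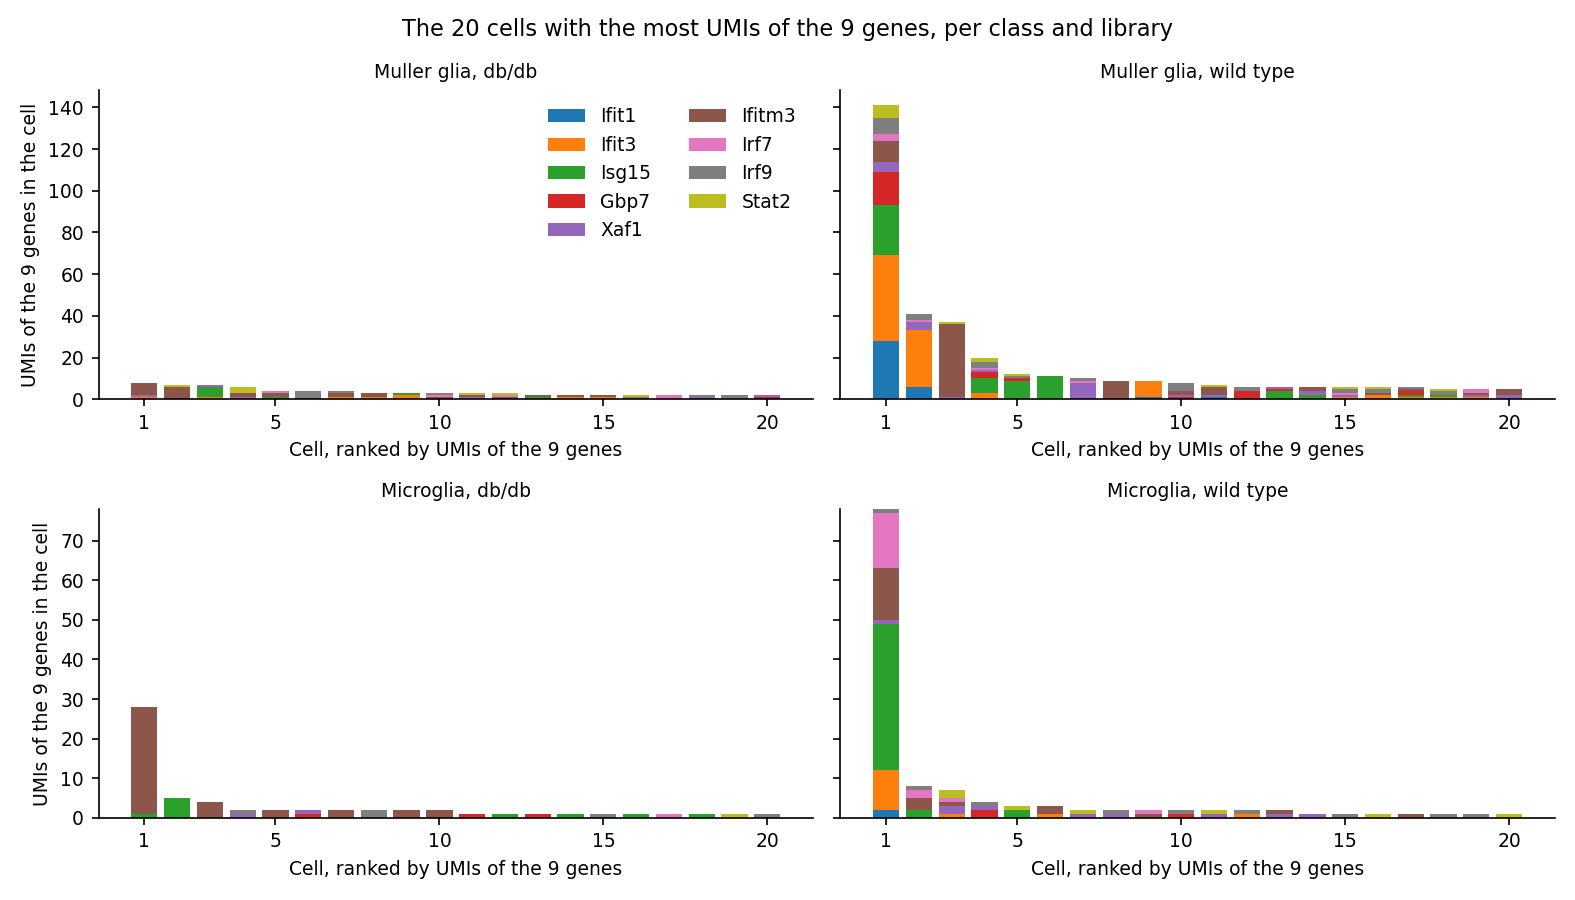
UMIs of the 9 genes in the 20 Muller glia and 20 microglia that held most of them, ranked, with db/db on the left and wild type on the right and 1 colour per gene. The highest db/db Muller glia cell reached 8 UMIs and the highest wild-type cell 141. In microglia the highest db/db cell reached 28 UMIs, of which 27 were Ifitm3, and the highest wild-type cell 78 UMIs, of which 37 were Isg15.

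Cells that carried several of the genes at once were 8 of 183 (4.37%, 1.91% to 8.43%) in db/db Muller glia and 33 of 291 (11.3%, 7.94% to 15.6%) in wild-type Muller glia, counting cells with at least 3 genes. At least 5 genes were found in 0 of 183 db/db cells (interval up to 2.00%) and in 5 wild-type cells (1.72%, 0.56% to 3.96%). The share with exactly 1 gene was 24.6% in db/db and 25.1% in wild-type Muller glia. The 33 wild-type cells with at least 3 genes were deeper than the other 258, with medians of 7976 and 2034.5 UMIs, and after thinning 0 of 137 db/db and 1 of 208 wild-type cells reached 3 genes. Other interferon-stimulated effectors stood at 880 CPM (776 to 994) in these 33 cells, against 381 CPM (341 to 423) in the other 258. Their list holds Ifit3b, which can share reads with the defining gene Ifit3, so it is not separate from the genes that picked the cells. Interferon-inducible GTPases stood at 266 CPM (210 to 332) in the 33 cells and 71.2 CPM (54.9 to 91.0) in the others. The cell with all 9 genes is 1 of the 33, and in the 32 cells without it the effectors stood at 597 CPM and the GTPases at 119 CPM. Both groups had 1 microglia-marker UMI, and rod markers stood at 11089 CPM in the 33 cells and 21342 CPM in the others. Bipolar markers stood at 604 CPM in the 33 cells and 272 CPM in the others. Gfap, an intermediate filament gene raised in reactive Muller glia, had 22 of its 29 wild-type Muller glia UMIs in the 33 cells. These 22 were all the UMIs of the astrocyte list in the 33 cells, where the list stood at 75.0 CPM, against 15.6 CPM in the others. Among the 30 wild-type cells with the most UMIs of the 9 genes, only 1 cell with at least 3 genes had a marker of this list. It was the cell with 35 Ifitm3 UMIs, and the cell with all 9 genes had 0. The rest of the 33 cells were not counted for Gfap, and a link of Gfap to the 9 genes was not tested. In the 8 db/db cells with at least 3 genes, the effectors stood at 370 CPM (251 to 525). They stood at 324 CPM (282 to 370) in the other 175 db/db cells. The GTPases stood at 95.4 CPM (41.2 to 188) in those 8 cells and 69.6 CPM (51.0 to 92.9) in the 175. The part of depth, of rod RNA and of bipolar RNA in all these values was not tested.

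**Figure D3:**
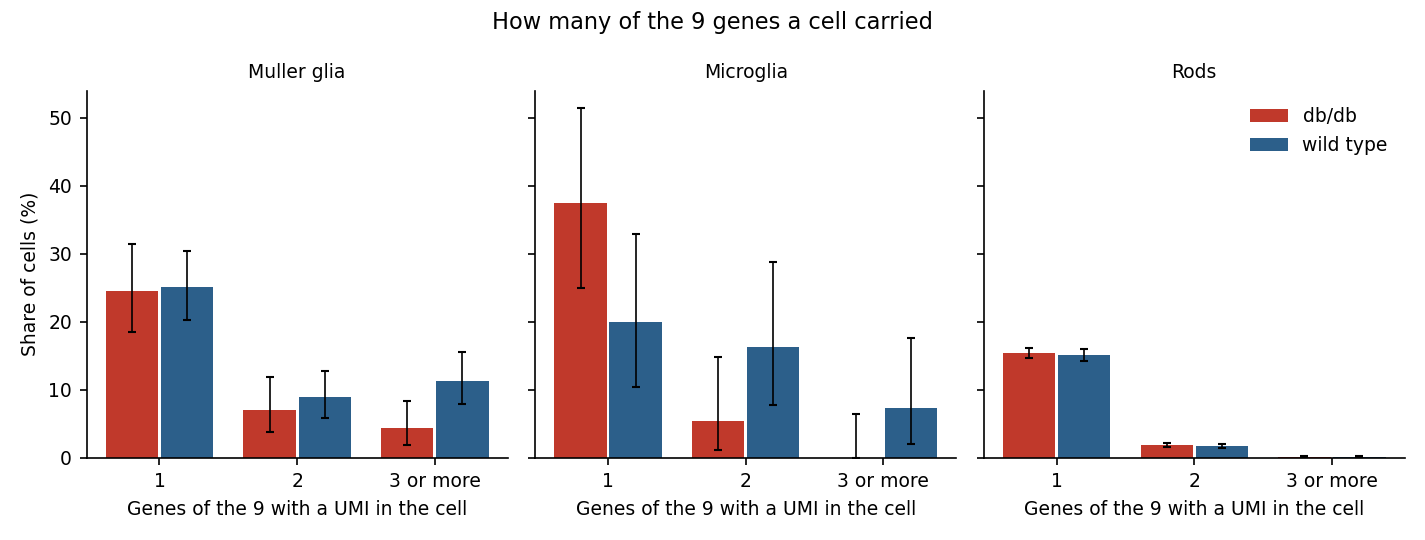
Share of cells, in percent, with UMIs of 1, 2, or 3 or more of the 9 genes in Muller glia, microglia and rods, with db/db in red on the left and wild type in blue on the right. Bars are single libraries and error bars are exact 95% binomial intervals for counting error. In Muller glia the shares with 1 gene were 24.6% and 25.1%, and those with 3 or more were 4.37% and 11.3%.

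In microglia most of the 9 genes had few UMIs, and 1 wild-type cell held most of the wild-type UMIs. Their sum was 65 UMIs, or 274 CPM (211 to 349), in db/db microglia and 128 UMIs, or 636 CPM (531 to 757), in wild-type microglia, a log2 ratio of -1.22 (-1.67 to -0.78). Isg15 had 10 UMIs in 6 db/db cells and 41 UMIs in 3 wild-type cells, a log2 ratio of -2.28 (-3.44 to -1.25). Irf7 had 1 UMI in db/db and 18 UMIs in 4 wild-type cells, a log2 ratio of -4.41 (-9.79 to -1.75). Ifit3 had 0 UMIs in db/db and 13 UMIs in 4 wild-type cells. With the db/db count set to 3 UMIs, Ifit3 was 5.12-fold lower, and the upper limit of its log2 ratio was -1.85. A single wild-type cell held 78 of the 128 UMIs, among them 37 of the 41 Isg15 UMIs, 14 of the 18 Irf7 UMIs and 10 of the 13 Ifit3 UMIs. It carried 12 of the 14 microglia markers, and 22 UMIs of Ifit2, 17 of Ifi204 and 16 of Rsad2, which are further interferon-stimulated genes named here after their values were seen. Without the top cell of each library, the log2 ratio of the sums was -0.66 (-1.32 to -0.02), and that of Isg15 turned to 0.94 (-0.90 to 3.09). Without the 5 top cells of each library the sums differed by -0.67, and the interval of -1.52 to 0.17 includes no difference.

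The other members gave fewer counts in microglia. Ifitm3 had 40 UMIs in 7 db/db cells and 25 UMIs in 10 wild-type cells, a log2 ratio of 0.44 (-0.32 to 1.22). Of the 40 db/db UMIs of Ifitm3, 27 came from 1 cell, which had 7 of the 14 microglia markers, 2 monocyte and neutrophil markers and 1 border macrophage marker. That cell also held 13 of the 21 db/db UMIs of the related gene Ifitm2, against 2 UMIs of Ifitm2 in all wild-type microglia. Xaf1 had 2 UMIs in db/db and 9 in wild type, Irf9 had 6 and 9, Stat2 had 2 and 8, Gbp7 had 3 and 3, and Ifit1 had 1 and 2. Only Isg15 and Ifitm3 reached 50 UMIs, and 1 of these 2, Isg15, was at least 2-fold lower in db/db, against 1.61% of 1365 genes. Isg15 reached 50 UMIs only through the 37 UMIs of 1 wild-type cell. This count therefore describes the libraries and carries no support of its own. Any of the 9 genes was found in 24 of 56 db/db (42.9%) and 24 of 55 wild-type microglia (43.6%). After thinning to 1000 UMIs, it was 3 of 42 db/db (7.14%, 1.50% to 19.5%) and 10 of 41 wild-type microglia (24.4%, 12.4% to 40.3%). Markers of border macrophages also differed in this class, with 4 of 5 detected at 32 UMIs (135 CPM) in db/db and 2 of 5 at 3 UMIs (14.9 CPM) in wild type. Monocyte and neutrophil markers had 7 UMIs in db/db, with Ly6c2, S100a8 and S100a9 at 0, and 0 UMIs in wild type. The part of these cells and of the deeper db/db microglia in the result was not tested.

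**Figure D4:**
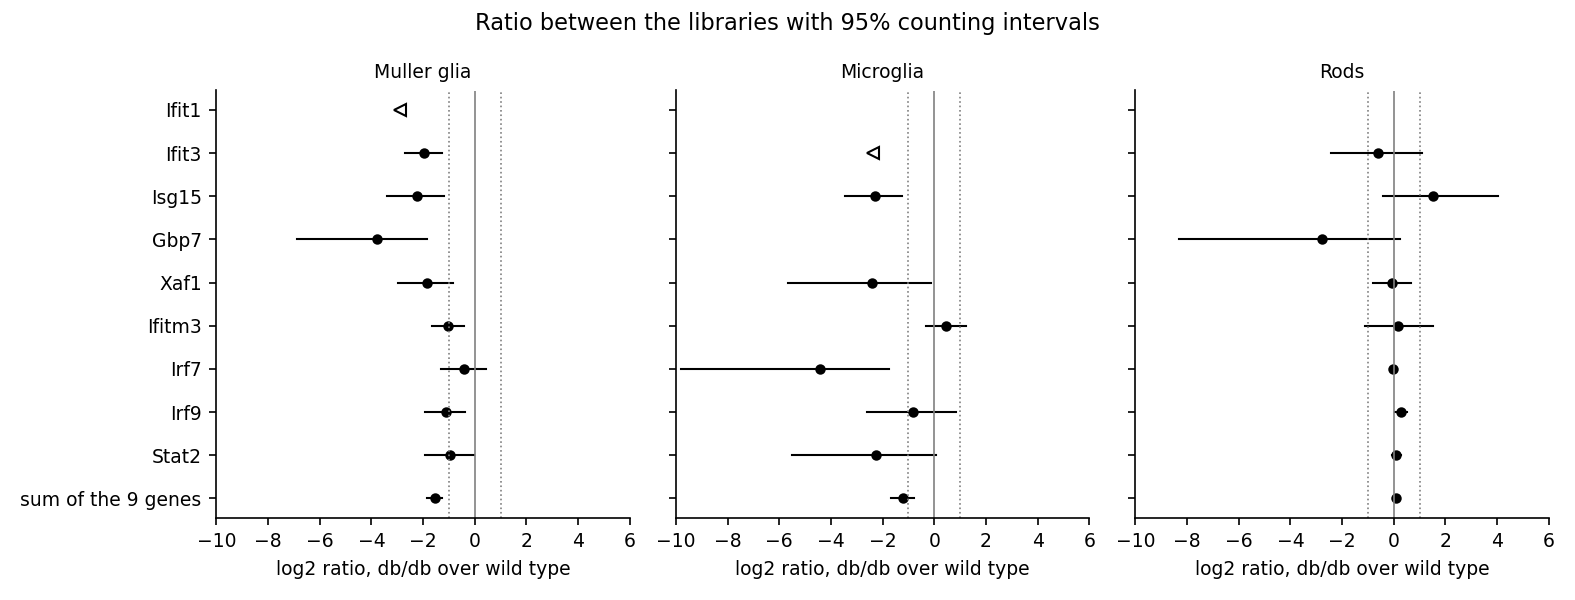
Log2 ratio of db/db over wild type for each of the 9 genes and for their sum, in Muller glia, microglia and rods. Dots are ratios of summed UMIs with exact 95% counting intervals, and dotted lines mark a 2-fold difference. Open triangles are ratios with a db/db count of 0 set to 3 UMIs. Genes with 3 or fewer UMIs in both libraries are left out. The sum lies at -1.55 in Muller glia, -1.22 in microglia and 0.07 in rods.

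Rods carried the 3 transcription factors of the group and hardly any of the effectors. Irf7 had 909 UMIs in 797 db/db rods (41.6 CPM) and 795 UMIs in 687 wild-type rods (41.9 CPM), a log2 ratio of -0.01 (-0.15 to 0.13). Stat2 had 561 UMIs (25.7 CPM) in db/db and 455 UMIs (24.0 CPM) in wild-type rods, a log2 ratio of 0.10 (-0.08 to 0.28). Irf9 had 362 UMIs (16.6 CPM) in db/db and 258 UMIs (13.6 CPM) in wild-type rods, a log2 ratio of 0.28 (0.05 to 0.52). Xaf1 had 35 and 32 UMIs, and Ifitm3, Isg15, Ifit3, Gbp7 and Ifit1 had at most 13 UMIs in either library. The 9 genes summed to 86.8 CPM in db/db and 82.7 CPM in wild-type rods, a log2 ratio of 0.07 (-0.03 to 0.17). None of the 4 members with 50 or more UMIs reached a 2-fold difference, where 0.438% of 11654 genes were at least 2-fold lower and 0.42% at least 2-fold higher in db/db rods. Phrf1, which overlaps the 3' end of Irf7, stood at 70.3 CPM in db/db and 71.3 CPM in wild-type rods, and how many Irf7 counts came from its transcripts was not tested.

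Within each library, Ifit3, Ifitm3, Isg15 and Xaf1 were higher in Muller glia than in rods. Ifit3 was 97.8-fold higher in Muller glia than in rods in db/db (37.9 to 298) and 247-fold higher in wild type (121 to 584). Ifitm3 was 67.7-fold higher in db/db (34.3 to 141) and 156-fold higher in wild type (81.3 to 335). Isg15 was 26.4-fold higher in db/db and 355-fold higher in wild type, and Xaf1 was 8.39-fold and 28.4-fold higher. Irf9 in Muller glia stood at 1.54 times its rod level in db/db (0.917 to 2.44) and 4.07 times in wild type (3.06 to 5.35). Irf7 stood at 0.581 times its rod level in db/db (0.343 to 0.924) and 0.761 times in wild type (0.534 to 1.05).

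Among the other neurons, Irf7 was lower in bipolar cells than in photoreceptors. It stood at 22.0 CPM in 443 db/db and 28.1 CPM in 503 wild-type cones, and at 4.28 CPM in db/db and 8.19 CPM in wild-type bipolar cells. The log2 ratio of Irf7 in bipolar cells over rods was -3.28 (-5.16 to -1.92) in db/db and -2.36 (-3.36 to -1.51) in wild type. In wild type the levels of Irf7 ran from 89.5 CPM in microglia over 41.9 CPM in rods, 31.9 CPM in Muller glia and 28.1 CPM in cones to 8.19 CPM in bipolar and 5.65 CPM in amacrine cells. In that order the intervals overlap between rods and Muller glia, between Muller glia and cones, and between bipolar and amacrine cells. Of the 18 wild-type microglia UMIs, 14 came from 1 cell. The order differed in db/db, where Irf7 stood at 4.21 CPM (1 UMI) in microglia and 28.4 CPM (2 UMIs) in amacrine cells. Stat2 was more even, with 17.8 CPM in db/db and 20.3 CPM in wild-type cones and 25.7 CPM in db/db and 22.3 CPM in wild-type bipolar cells. In amacrine cells, of which there were 18 in db/db and 66 in wild type, Stat2 had 8 UMIs in 6 db/db cells and 7 UMIs in 7 wild-type cells, a log2 ratio of 2.52 (0.86 to 4.22). Over all 9380 db/db and 8222 wild-type neurons, the 9 genes summed to 82.6 CPM in db/db and 77.9 CPM in wild type, a log2 ratio of 0.09 (-0.01 to 0.18).

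The rest of the interferon pathway was described from lists of ligands, receptors, factors, sensors, effectors, GTPases and feedback regulators, of which Mx1 and Mx2 were not analysed here. The 11 interferon ligand genes had 0 UMIs in db/db and 1 UMI in wild-type Muller glia, 1 and 0 in microglia, and 0 in rods of both libraries. Receptor and kinase genes differed little in Muller glia, where none of 4 measured genes reached a 2-fold difference and their median log2 ratio was -0.22. Ifnar1, a type I interferon receptor subunit, had 29 UMIs in db/db and 47 in wild type, a log2 ratio of -0.02, and Ifnar2, the other subunit, had 32 and 75, a log2 ratio of -0.55 (-1.19 to 0.07). Of 5 measured STAT and IRF factors, Irf1, an early interferon-induced factor, was at least 2-fold lower, with 120 UMIs in db/db and 455 UMIs in wild-type Muller glia, a log2 ratio of -1.24 (-1.55 to -0.95). Stat3, Irf2 and Irf3 lay between -0.04 and 0.07.

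Of the 37 other effectors in the matrices, 26 were detected in Muller glia and 4 were measured. Oasl2, of the oligoadenylate synthetase family, had 12 UMIs in db/db and 52 UMIs in wild-type Muller glia, a log2 ratio of -1.44 (-2.48 to -0.51). Of these 52 UMIs, 18 came from the single wild-type cell with all 9 genes. Ifi27 had 23 UMIs in db/db and 81 UMIs in wild type, a log2 ratio of -1.14 (-1.87 to -0.45). Ifi35 and Ifitm2, the other two, lay at -0.05 and 0.28. The effectors summed to 329 CPM in db/db and 504 CPM in wild-type Muller glia, a log2 ratio of -0.61 (-0.83 to -0.40). The wild-type cell with all 9 genes also held 131 UMIs of 26 of the 49 effector and GTPase genes, which is 17.7% of their wild-type total in Muller glia. Of these 131 UMIs, 16 were of Ifit3b, which can share reads with Ifit3. Socs3, which encodes a feedback inhibitor of cytokine receptor signalling, had 409 UMIs in db/db and 869 UMIs in wild type, a log2 ratio of -0.41 (-0.58 to -0.24).

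In microglia the wider lists did not all lie on the same side. The effectors summed to 985 CPM in db/db and 2312 CPM in wild type, a log2 ratio of -1.23 (-1.46 to -1.002), and 32.8% of the 503 wild-type UMIs of effectors and GTPases came from the cell with 78 UMIs of the 9 genes. Bst2, which encodes the virus-tethering protein tetherin, had 19 UMIs in db/db and 36 UMIs in wild type, a log2 ratio of -1.16 (-2.05 to -0.32). That same wild-type cell held 9 of the 36 Bst2 UMIs. Socs3 had 363 UMIs in db/db and 137 UMIs in wild-type microglia, a log2 ratio of 1.17 (0.88 to 1.46). Irf1 had 67 UMIs in db/db and 30 in wild type, a log2 ratio of 0.92 (0.28 to 1.59), and Irf8, a factor of the myeloid lineage, had 117 and 63, a log2 ratio of 0.65 (0.20 to 1.12). In rods no measured gene of any list reached a 2-fold difference, and the medians of the lists lay between -0.10 and 0.24.

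Markers of other cell types in the Muller glia class were counted in both libraries. Bipolar markers had 141 UMIs (189 CPM) in db/db and 421 UMIs (353 CPM) in wild-type Muller glia, and their part in the result was not tested. Amacrine markers had 477 UMIs (641 CPM) in db/db and 749 UMIs (629 CPM) in wild type, of which Pax6, also a gene of Muller glia, made up 383 and 576. Horizontal cell markers had 200 UMIs in db/db and 287 UMIs in wild type, of which Sept4 made up 195 and 280, and cone markers stood at 171 and 188 CPM. Microglia markers had 6 UMIs in db/db and 2 UMIs in wild-type Muller glia, with C1qb, C1qc, Tmem119 and Tyrobp at 0 in both libraries. Markers of T and NK cells and of monocytes and neutrophils had 0 UMIs in both. Endothelial markers had 416 UMIs (559 CPM) in db/db and 933 UMIs (783 CPM) in wild type, but Kdr made up 415 and 918 of these, and Cdh5, Tie1, Emcn and Slco1a4 were at 0 in both. Pericyte markers stood at 95.4 CPM in db/db and 57.9 CPM in wild type, mostly Pdgfrb, and astrocyte markers at 49.7 and 30.2 CPM.

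Over the 12 profiles of 6 classes in 2 libraries, the genes whose log2 levels followed a member most closely were Txnip for Ifitm3 (Pearson r = 0.996), Cdc42se1 for Isg15 (r = 0.965), Itgav for Ifit3 (r = 0.904), Idh2 for Xaf1 (r = 0.929), Map3k14 for Irf9 (r = 0.949), Mfsd14a for Stat2 (r = 0.935) and Atg101 for Irf7 (r = 0.895). The profiles share 2 libraries and differ in depth, so these values are a description. Gbp7 and Ifit1 had too few UMIs for it.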

How the data were processed

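Per the file headers, the deposited values were raw counts of UMIs per gene and cell barcode from Cell Ranger 6.0.1, and per the submitters' processing notes the genome was mm10. The annotation release, the rule for calling cells and the use of strand are not given in the sources used here. Cells with at least 200 genes and at most 20% mitochondrial UMIs were kept. A cell entered a non-rod class if at least 1/3 of its markers were detected, no other non-rod class reached more than 1/2 of that share, and the markers' share of UMIs was at least 5 times that over all cells. Rods needed 1/2 of 12 markers and under 1/4 of the markers of any other class. Scrublet, run in scanpy 1.11.5, called 2 db/db and 0 wild-type cells doublets, too few for a caller that worked, so doublets stayed in, and an alternative left out the 8% with the highest scores.

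Counts were summed per class and library and scaled to CPM. Log2 ratios are db/db over wild type, with exact conditional binomial intervals (Python 3.11.15, scipy 1.17.1). These were checked only on simulated Poisson sums, the model they assume, so the check does not cover UMIs concentrated in single cells. Levels have exact Poisson and shares Clopper-Pearson intervals. A count of 0 was set to 3 UMIs, and genes with 50 or more UMIs in a class counted as measured. Named were all 9 members and, per list and class, up to 4 measured genes with the most UMIs and those at least 2-fold apart. For likeness, members needed 100 UMIs and other genes 200, on log2(CPM + 10). Values of 1 listed gene are not reported here. The members and lists were chosen with earlier results of these data known. Positions are RefSeq windows of GRCm38.p6 and GENCODE M21 genes of GRCm38.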

Additional observations from a re-analysis of the deposited data

Results flagged for a closer look

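Some of the 9 genes, and their sum, stood on opposite sides in different classes, with counting intervals that left out 0 on both sides. Outside the 9 genes, Irf1 and Socs3 did so too, lower in db/db Muller glia and higher in db/db microglia, with values given above. The differences between classes were not tested, and each class has 1 library per genotype. For Irf9, the log2 ratio of db/db over wild type was -1.12 in Muller glia and 0.28 in rods. For Stat2 it was -0.94 in Muller glia and 2.52 in amacrine cells, where the value rests on 8 db/db and 7 wild-type UMIs. For the sum of the 9 genes it was -1.55 in Muller glia, -1.22 in microglia and 1.67 in amacrine cells, where 12 UMIs in 18 db/db cells stood against 19 UMIs in 66 wild-type cells.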

How the results depend on the processing

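The summed log2 ratio in Muller glia stayed at or below -1 under all 14 alternatives, between -1.98 and -1.11. The mean of per-cell CPM gave -1.21 in Muller glia and -0.67 in microglia. Leaving out the top cell of each library gave -1.22 and -0.66. Leaving out the 5 top cells, added after seeing the data, gave -1.11 and -0.67. Leaving out cells with over 2% rod-marker UMIs, also added, gave -1.98 in Muller glia. Thinning to 1000 UMIs gave -1.70 in microglia and -0.013 in neurons, where the main value was 0.09. Isg15 changed side in microglia without the top cell (0.94) and in neurons as a mean of per-cell CPM (-0.59), where it rests on 11 db/db and 4 wild-type UMIs. The causes were not tested, beyond the cells left out by construction.

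Of 287 planned values for single genes, 274 stayed within the counting interval of the main value. In all, 12 took the opposite sign, among them Isg15 (above), Irf7 in Muller glia (0.38 as a mean of per-cell CPM), Ifitm3 in microglia (-0.62 thinned) and Stat2 (-0.27) and Xaf1 (-0.30) in thinned neurons. In Muller glia, Gbp7, Isg15 and Xaf1 stayed at least 2-fold lower in all 14. Irf7 lay between -1.57 and 0.38. Removing the top 8% of cells by doublet score, which took 3 of 183 db/db and 25 of 291 wild-type Muller glia, the sum was -1.60 and Ifitm3 was -0.36. No paired analysis was possible because each genotype had 1 library. Depth limits Ifit1 and Gbp7 in Muller glia and 7 of the 9 genes in microglia, which stayed under 50 UMIs.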
